A study of Rattus norvegicus with 21 samples.

Results

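Lpl, Cpeb4, Frzb and Wee1 are 4 genes whose level went up and down together from rat to rat in the dentate gyrus of epileptic rats, and Serinc2 ran the opposite way. They were chosen for that pattern of levels over the rats, in the same 21 arrays described here, so the levels and the likeness of the 4 genes are given as a description with no test. They are 5 of the 8211 array features that passed the detection filter, and each had 1 probe. The study recorded field activity in hippocampal slices of pilocarpine-treated Wistar rats, and measured RNA from dentate gyrus areas that produced fast ripples (FR) or did not (Non-FR). Fast ripples are brief bursts of very fast field oscillation seen in epileptic tissue, and pilocarpine is a muscarinic agonist whose injection starts a prolonged seizure after which rats become epileptic.

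The 10 FR areas came from 10 slices and the 11 Non-FR areas from the same 10 slices and 1 more slice of rat B9. The 6 rats were P91, B9, B1, B3, B13 and B10. All of them were Wistar rats given pilocarpine, none was untreated, and the labels used here give neither age nor sex. B1 and B13 gave 1 slice each, P91, B3 and B10 gave 2 each and B9 gave 3. The areas of a rat share that rat, so they are not independent animals. The labels name no chip or processing batch, so a rat and any batch that ran with it cannot be told apart.

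The genes do unlike things in a cell. Lipoprotein lipase (Lpl) releases fatty acids from the triglycerides of lipoproteins and is made in rat hippocampus as well as in fat and muscle. Cpeb4 binds a short uridine-rich element at the 3' end of messenger RNAs and, through the length of the poly(A) tail, changes how well they are translated. Frzb, also called sFRP3, is a secreted protein that binds Wnt ligands and keeps them from their Frizzled receptors, and in mice it is released by dentate granule cells and holds back the activation of neural stem cells. The kinase Wee1 phosphorylates and restrains the cyclin-dependent kinase that starts mitosis, and in mouse liver it is a target of the circadian clock. Serinc2 belongs to the serine incorporators, membrane proteins with many transmembrane segments.

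The RefSeq promoter table (build GRCr8) matched 3 of the 5 genes, Frzb, Cpeb4 and Serinc2. Each window runs from 250 bases before to 50 bases after the transcript start used in that table, all 3 on the minus strand. They are Frzb at chr3:85772047-85772346, Cpeb4 at chr10:16283539-16283838 and Serinc2 at chr5:147898748-147899047. The Frzb and Serinc2 windows cover the 5' ends of their genes, at 85772168 and 147898797. The transcript start used is that end for Serinc2, whereas for Frzb it lies inside the gene, a short way past that end. The Cpeb4 window lies wholly inside its gene, whose 5' end is at 16284248, so its transcript start is an internal one too. They are shown because Frzb and Cpeb4 moved together over the rats and Serinc2 against them, and capitals mark matches to the motifs searched.
Frzb: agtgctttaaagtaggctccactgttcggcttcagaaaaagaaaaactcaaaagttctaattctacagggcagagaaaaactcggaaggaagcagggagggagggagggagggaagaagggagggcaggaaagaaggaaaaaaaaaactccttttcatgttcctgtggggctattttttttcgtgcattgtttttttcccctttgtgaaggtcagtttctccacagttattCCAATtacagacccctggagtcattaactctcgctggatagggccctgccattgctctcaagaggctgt
Cpeb4: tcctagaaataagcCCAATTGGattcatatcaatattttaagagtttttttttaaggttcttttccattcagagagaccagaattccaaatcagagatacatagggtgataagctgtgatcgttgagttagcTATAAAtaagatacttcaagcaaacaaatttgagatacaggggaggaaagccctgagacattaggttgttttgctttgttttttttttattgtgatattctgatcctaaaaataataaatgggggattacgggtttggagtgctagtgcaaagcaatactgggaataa
Serinc2: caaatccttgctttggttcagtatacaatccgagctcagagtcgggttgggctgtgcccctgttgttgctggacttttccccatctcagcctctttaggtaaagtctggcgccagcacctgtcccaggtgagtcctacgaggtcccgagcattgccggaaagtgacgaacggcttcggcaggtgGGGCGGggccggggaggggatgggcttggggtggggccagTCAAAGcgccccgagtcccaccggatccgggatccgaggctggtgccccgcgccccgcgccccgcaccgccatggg
The 3 windows differed in composition. G and C made up 45.3% of the Frzb window, 34.0% of the Cpeb4 window and 65.0% of the Serinc2 window, where the median of 33469 promoters of the table was 51.7%. The CG dinucleotide occurred 4 times in Frzb, 2 times in Cpeb4 and 22 times in Serinc2, against a median of 7.

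Of 8 motifs searched on both strands, Frzb and Cpeb4 held the CCAAT box (CCAAT), which 37.5% of all promoters of the table hold. It lay 19 bases before the start in Frzb, at a place inside the annotated gene. In Cpeb4 it occurred on both strands at 236 and 233 bases before the start, where the 2 matches overlap and are printed as 1 run of capitals. Cpeb4 also held the TATA box (TATAAA, in 14.2% of promoters) at 118 bases before the start. Serinc2 held the GC box (GGGCGG, in 33.1%) at 66 and, on the other strand, the TCF/LEF motif of Wnt signalling (CTTTGA, in 16.1%) at 26 bases before the start. The E-box of clock and Myc factors (CACGTG, in 6.42%), the cyclic AMP response element (TGACGTCA, in 1.83%), the D-box (TTATGTAA, in 0.893%) and the glucocorticoid receptor motif (AGAACA, in 20.7%) were in none of these 3 windows. These matches describe letters only.

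Levels are log2 of the normalized signal, on which the median tested feature stood between 6.67 and 6.69 on every array. Lpl, Cpeb4, Frzb and Wee1 were highest in rat B13 and lowest in P91 or B9, and Serinc2 was lowest in B13 and highest in B9. The distance between the highest and the lowest rat mean was 5.04 log2 units for Lpl, 3.78 for Cpeb4, 3.63 for Frzb, 3.44 for Wee1 and 4.21 for Serinc2. By that distance they held ranks 2, 10, 12, 19 and 4 of 8211 features, whose median was 0.676 and whose 95th percentile was 1.98. Differences between rats took 61.8% of the variance over arrays for Lpl, 67.9% for Cpeb4, 69.2% for Frzb, 70.4% for Wee1 and 75.8% for Serinc2. The median feature had 41.5% and the 95th percentile was 72.1%, so only Serinc2 was past it. By that share the genes, in the same order, held ranks 1168, 658, 585, 507 and 257 of 8211 features. In tissue pieces, fewer cells of a type and less RNA per cell cannot be told apart.

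**Figure D1:**
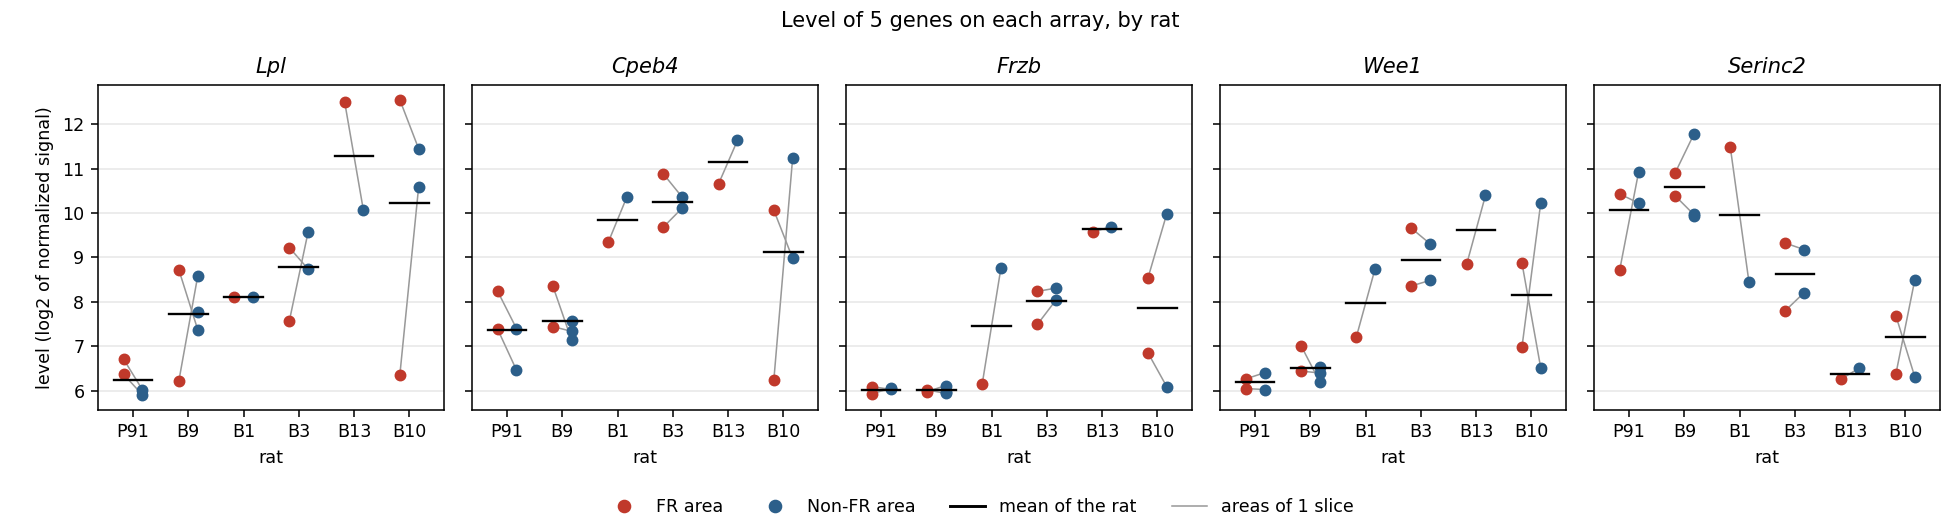
Level (log2 of normalized signal, vertical axis) of each gene on each of the 21 arrays, by rat, with FR areas in red at the left and Non-FR areas in blue at the right of each rat, grey lines joining areas of 1 slice and black bars at the rat mean. Lpl, Cpeb4, Frzb and Wee1 have their highest rat mean in B13, Serinc2 has its lowest there (6.38), and the areas of B10 are spread widely.

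Lpl (probe ILMN_1357053) gave the widest range. B13 had 12.51 in its FR area and 10.06 in its Non-FR area. B10 had 12.55 and 6.36 in the FR areas of slices S1 and S2, against 11.45 and 10.59 in the Non-FR areas. The FR area of the second B10 slice thus lay at the level of P91, in a rat whose other areas were among the highest. B3 had 7.57 and 9.22 in FR areas, against 9.58 and 8.74 in Non-FR areas, and B1 had 8.11 in both areas. B9 had 6.23 and 8.72 in FR areas, against 8.58, 7.76 and 7.37 in Non-FR areas. P91 had 6.70 and 6.36 in FR areas, against 6.02 and 5.90 in Non-FR areas. Ordered by rat mean, B13 was followed by B10 (10.23 ± 2.71, SD, n = 4 areas), B3, B1, B9 and P91 (6.25 ± 0.36, SD, n = 4 areas), and each neighbour in that order overlapped the next. The deposited signal before normalization ran from 54.8 to 5994 intensity units over the same arrays. Lpl was not detected on 1 array, a Non-FR area of P91 with a detection p of 0.0611, so its lowest level is near background.

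Cpeb4 (probe ILMN_1371786) separated 3 rats from 2 others. B13 had 10.66 in its FR area and 11.63 in its Non-FR area. B3 had 9.68 and 10.88 in FR areas, against 10.11 and 10.36 in Non-FR areas. B1 had 9.34 in its FR area and 10.37 in its Non-FR area. All of these lay above B9 and P91, which overlapped each other. B9 had 8.35 and 7.44 in FR areas, against 7.13, 7.57 and 7.33 in Non-FR areas. P91 had 7.38 and 8.23 in FR areas, against 6.46 and 7.40 in Non-FR areas. B10 reached across the whole range, with 10.06 and 6.25 in the FR areas of S1 and S2 and 8.98 and 11.24 in the Non-FR areas. With B10 between B1 and B9 (9.13 ± 2.13, SD, n = 4 areas), each neighbour in the order of rat means overlapped the next.

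Frzb (probe ILMN_1366268), the Wnt-binding protein of granule cells, was near the lower end of the scale on every array of P91 and B9. P91 had 5.92 and 6.09 in FR areas, against 6.05 and 6.03 in Non-FR areas. B9 had 5.97 and 6.01 in FR areas, against 6.11, 5.98 and 5.94 in Non-FR areas. Deposited signals on those 9 arrays ran from 47.7 to 115.5 intensity units, against 726.8 and 847.1 as the lowest and highest in B13. B13 had 9.58 in its FR area and 9.69 in its Non-FR area, above every array of B3. B3 had 7.49 and 8.23 in FR areas, against 8.05 and 8.31 in Non-FR areas. The other rats mixed both states. B1 had 6.15 in its FR area and 8.77 in its Non-FR area, and B10 had 6.85 and 8.53 in FR areas, against 6.09 and 9.97 in Non-FR areas. Of the neighbours in the order B13, B3, B10, B1, P91, B9, only B13 against B3 and B1 against P91 did not overlap.

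Wee1 (probe ILMN_1361482), the mitotic inhibitor, followed the same rats. B13 had 8.85 in its FR area and 10.39 in its Non-FR area. B3 had 8.36 and 9.65 in FR areas, against 8.48 and 9.30 in Non-FR areas. B1 had 7.20 in its FR area and 8.74 in its Non-FR area. All 8 values of these 3 rats were above every value of B9 and P91. B9 had 7.01 and 6.44 in FR areas, against 6.20, 6.53 and 6.40 in Non-FR areas. P91 had 6.04 and 6.26 in FR areas, against 6.02 and 6.40 in Non-FR areas. B10 had 8.88 and 6.97 in FR areas, against 6.52 and 10.22 in Non-FR areas. Its areas overlapped those of B3 above it and of B1 below it, and in the order of rat means only B1 and B9 did not overlap.

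Serinc2 (probe ILMN_1361153) ran the other way. B9 had 10.39 and 10.90 in FR areas, against 9.97, 9.93 and 11.77 in Non-FR areas. P91 had 8.72 and 10.43 in FR areas, against 10.92 and 10.22 in Non-FR areas. B1 had 11.49 in its FR area and 8.43 in its Non-FR area. These 3 rats overlapped one another. B3 had 9.32 and 7.80 in FR areas, against 9.17 and 8.21 in Non-FR areas. B10 had 6.38 and 7.68 in FR areas, against 8.49 and 6.31 in Non-FR areas. B13 had 6.25 in its FR area and 6.51 in its Non-FR area, and each neighbour in the order of rat means again overlapped. Deposited signals of Serinc2 were 81.9 and 93.7 intensity units in B13, against 1330 to 4003 in B9.

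Over the 6 rat means the pairs among Lpl, Cpeb4, Frzb and Wee1 correlated by 0.785 to 0.979, and Serinc2 correlated with each of them by -0.923 to -0.722. The choice of genes fixes these values. Over the 21 arrays, which share rats, slices and the quantile step, the 6 pairs ran from 0.481 (Lpl with Frzb) to 0.922 (Cpeb4 with Wee1), with a mean of 0.713. The mean over the 10 FR arrays was 0.631 and over the 11 Non-FR arrays 0.775. Without the second slice of B10, left out after its values were seen, these means were 0.771 over 9 FR arrays and 0.728 over 10 Non-FR arrays. Frzb and Wee1 correlated by 0.669 among FR arrays (0.806 without that slice), and by 0.984 among Non-FR arrays (0.981 without it).

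Within rats the 4 genes did not all keep together. After the mean of each rat was taken off, Cpeb4 with Wee1 stood at 0.784, Frzb with Wee1 at 0.648 and Cpeb4 with Frzb at 0.243. Lpl stood at 0.515 with Cpeb4, 0.128 with Wee1 and -0.277 with Frzb. The FR area of the second B10 slice weighs on these values, since Lpl and Cpeb4 were both far below their rat mean there. Without that array, which was left out after its values were seen, Lpl stood at -0.298 with Cpeb4, -0.306 with Wee1 and -0.179 with Frzb, whereas Cpeb4, Frzb and Wee1 stood at 0.686 to 0.854 with one another. Lpl shared much of the order of the rats with the other 3 genes, and among the areas of a rat its r with each of them was below 0 once that array was left out. Serinc2 stood at -0.220 with Lpl, -0.455 with Cpeb4, -0.549 with Frzb and -0.625 with Wee1 within rats.

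**Figure D2:**
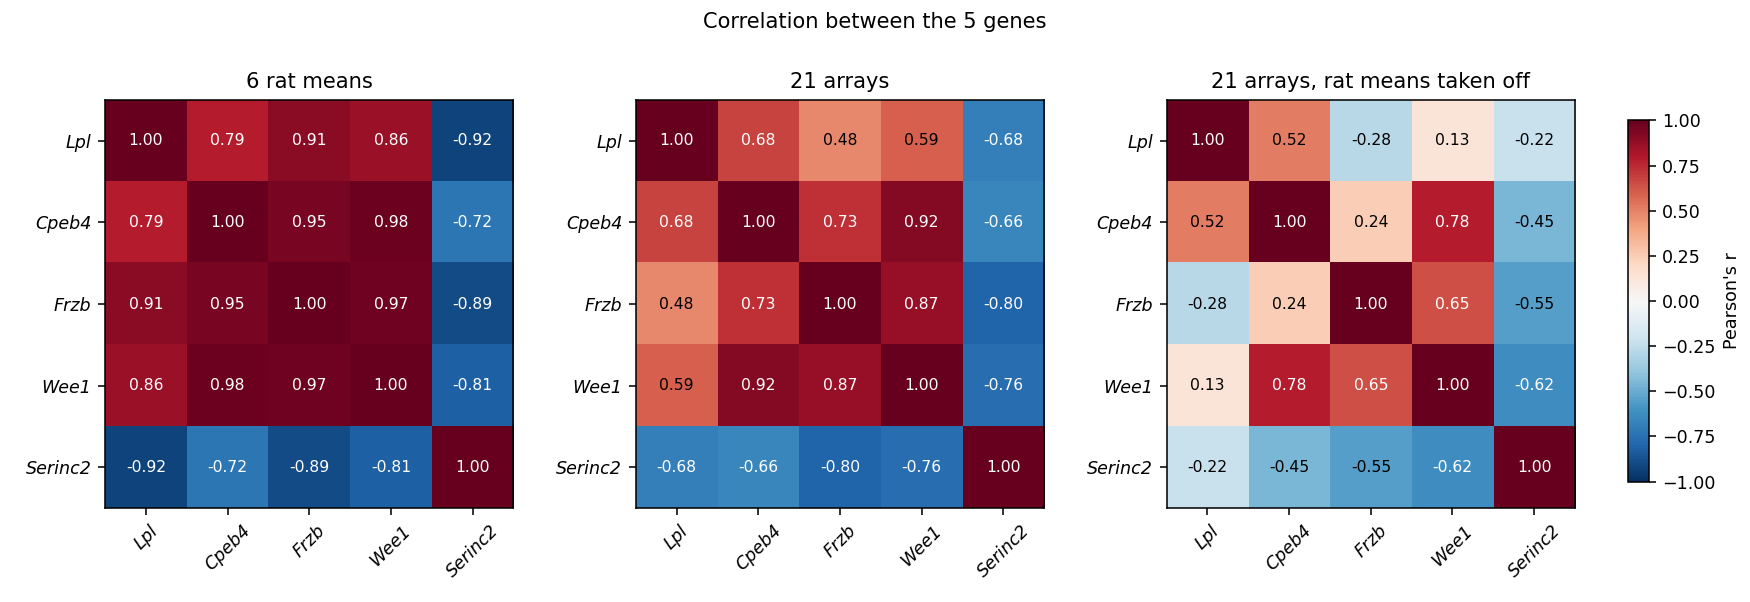
Pearson correlation between the 5 genes over the 6 rat means (left), over the 21 arrays (middle) and over the 21 arrays after each rat's mean was taken off (right), with red for positive and blue for negative values. The 6 pairs of Lpl, Cpeb4, Frzb and Wee1 lie between 0.785 and 0.979 at the left, while at the right Lpl with Frzb is at -0.277.

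The 4 genes were combined into a score, the mean of their standardized levels on each array, to find genes of like pattern. The 10 named genes most like it over 21 arrays had r between 0.945 and 0.963. Several of them act in neurons. Nptn (0.963) encodes neuroplastin, an adhesion molecule of synapses, Plcb1 (0.955) a phospholipase C that acts below muscarinic and glutamate receptors, Gpm6a (0.949) a glycoprotein of neuronal membranes and Fgf13 (0.947) a partner of sodium channels. Smarca1 (0.956), a chromatin remodeller, Tent4b (0.950), a poly(A) polymerase, Gnl3 (0.950), the nucleolar protein nucleostemin, Nrbf2 (0.946), an autophagy factor, and Vcpip1 (0.946), a deubiquitinase, were the others, with Serinc1 (0.945). Serinc1, a relative of Serinc2, thus went with the 4 genes that Serinc2 opposed. Its rat means were 10.54 in B13, 9.87 in B3, 9.61 in B10, 9.06 in B1, 7.92 in B9 and 7.84 in P91.

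The 5 named genes most opposite to the score were Ddah2 (-0.938), which breaks down methylarginines, Psmb1 (-0.937), a proteasome subunit, Sh3bgrl3 (-0.927), a small thioredoxin-like protein, Lamtor2 (-0.918), a lysosomal adaptor of mTORC1 signalling, and Mlycd (-0.917), which degrades malonyl-CoA. Over the 6 rat means, the r of these 15 genes lay between 0.962 and 0.989 for the like ones and between -0.996 and -0.960 for the opposite ones. Serinc2 itself had r = -0.818 and was 144th from the lowest of 6343 named genes. The 5 genes most like Serinc2, listed after their values were seen, were Sh3glb2 (0.921), Clec2l (0.914), Adgrb1 (0.914), Ric8a (0.911) and Spns1 (0.908).

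**Figure D3:**
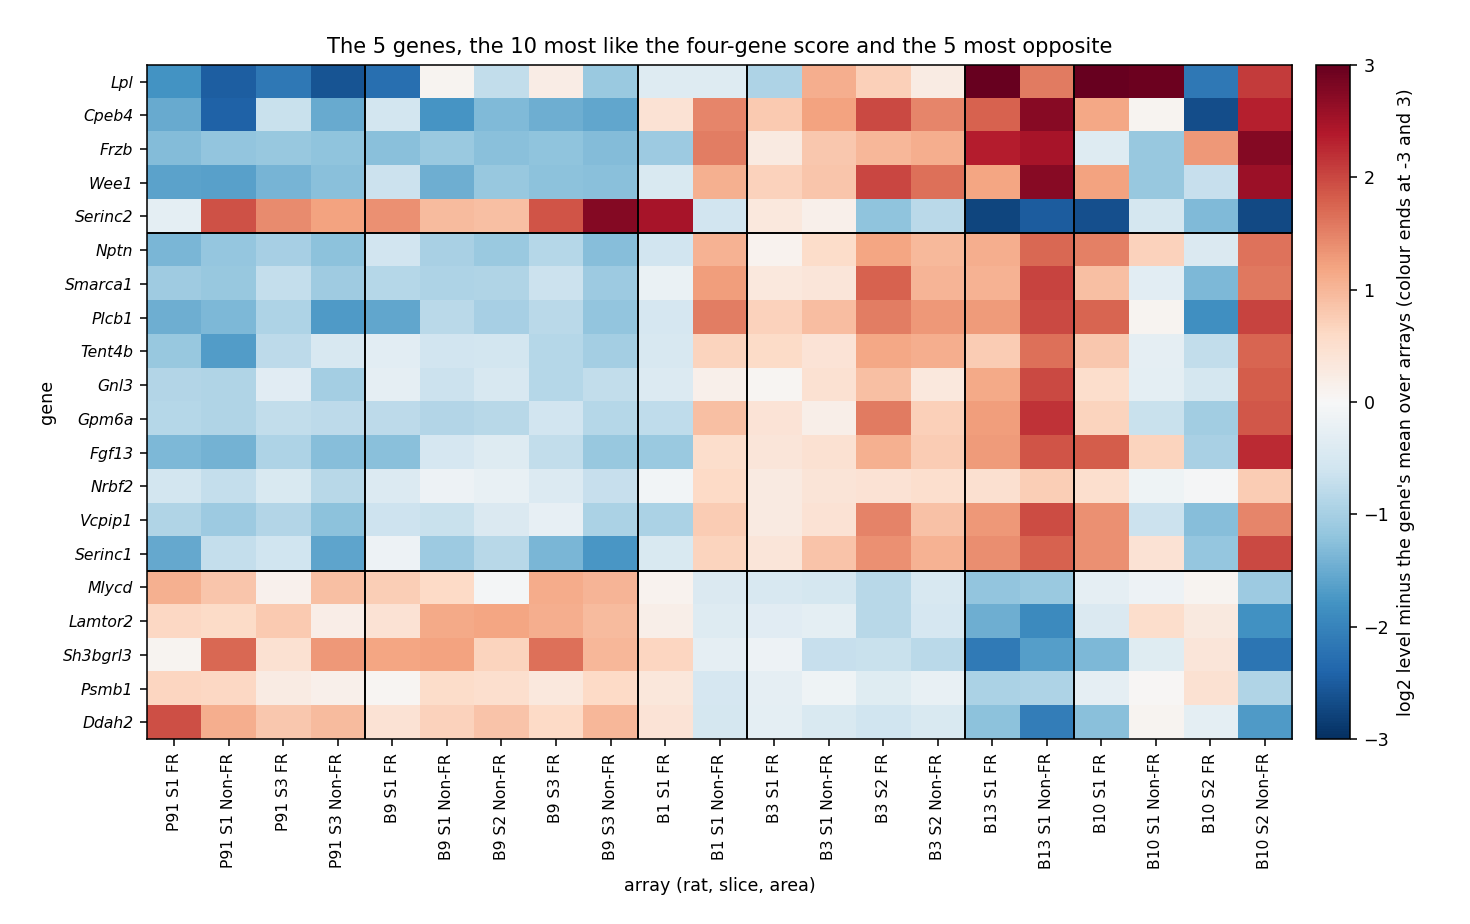
Level of each gene minus its own mean over the 21 arrays (log2, colour ending at -3 and 3) for the 5 genes at the top, the 10 genes most like the score of Lpl, Cpeb4, Frzb and Wee1 in the middle and the 5 most opposite at the bottom. Columns are arrays grouped by rat, each slice with its FR area left of its Non-FR area. P91 and B9 are below the mean in all 10 like genes, B3 and B13 above it, and B1 and B10 hold areas of both kinds.

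Many features shared the pattern. Of 8211 features, 533 (6.49%) had an r above 0.8 or below -0.8 with the score, 314 of them positive and 219 negative, the members counted. The first principal component of all features took 35.8% of the variance, 69.4% of it between rats, and the score correlated with it by 0.955 over arrays, by 0.992 over rat means and by 0.870 within rats. Wee1 was among the closest features to that component (r = 0.972), Cpeb4 (0.931), Frzb (0.866) and Serinc2 (-0.802) were near it, and Lpl was less so (0.615, the 70.1th percentile of features by size of r). The score was also lower on arrays with more detected probes (r = -0.591 over arrays, -0.661 over rat means, -0.291 within rats). Its r with the mean signal was -0.420 over arrays, -0.666 over rat means and 0.164 within rats. The part of array brightness and of the number of detected probes in the pattern was not tested.

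**Figure D4:**
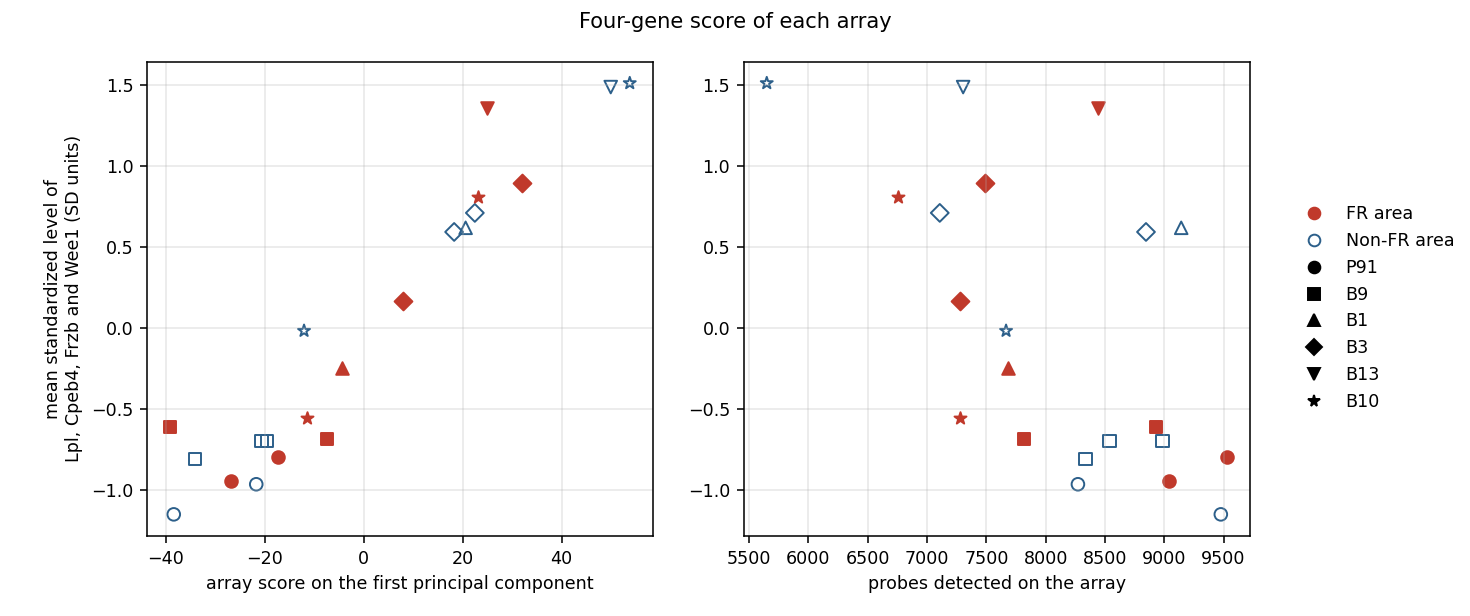
Mean standardized level of Lpl, Cpeb4, Frzb and Wee1 on each array (vertical axis, in SD units) against the array's score on the first principal component of 8211 features (left) and against the number of probes detected at p below 0.01 (right), with filled red symbols for FR areas, open blue symbols for Non-FR areas and a symbol shape for each rat. Points follow a line at the left (r = 0.955) and scatter widely at the right (r = -0.591).

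Mean probe signal lay between 101.3 and 369.8 intensity units in FR areas (184.9 ± 82.9, SD, n = 10), against 84.2 to 310.9 in Non-FR areas (215.2 ± 88.0, SD, n = 11). The number of detected probes (detection p under 0.01) was 6753 to 9525 in FR areas, against 5648 to 9477 in Non-FR areas. The second slice of B10 was the least like its own rat, with B1 and another area of B10 close to it. The mean r of its deviations with those of the other areas of its rat was 0.014 for the FR area and 0.031 for the Non-FR area, the lowest of the 21 arrays, where areas of 1 slice averaged 0.36 and areas of different rats -0.11. Next came the 2 areas of B1, at 0.074 with each other, and the Non-FR area of the first B10 slice, at 0.097. The Non-FR area of the second B10 slice was the dimmest array.

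None of the 5 genes differed between FR and Non-FR areas past the threshold, and FR areas were both above and below Non-FR areas of the same slice. With limma and the rat as a block, 0 of 5 genes and 0 of 8211 features (0%) had a Benjamini-Hochberg adjusted p below 0.05, and the smallest adjusted p was 0.9999. At an unadjusted p below 0.05 the same fit gave 29 features, 13 higher and 16 lower in FR areas, none of them among the 5 genes. This contrast lies within rats and did not choose the genes. The intervals given next are wide, so these tests do not establish that FR and Non-FR areas were alike.

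Lpl had a lowest, median and highest level of 6.23, 7.84 and 12.55 in FR areas, against 5.90, 8.58 and 11.45 in Non-FR areas. The groups overlapped almost wholly. The difference was -0.20 log2 (SE 0.63, 95% interval -1.54 to 1.14, p = 0.753), and Lpl was higher in the FR area in 7 of 10 slices and in 3 of 6 rats. The slices ran from -4.23 in the second slice of B10 to 2.44 in B13. The sign of the fitted value was not stable. The value was 0.32 without the FR array of the second B10 slice and -0.17 without its Non-FR array, the dimmest array. On rat means of the slice differences, with all slices kept, it was 0.032.

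Cpeb4 had a lowest, median and highest level of 6.25, 8.84 and 10.88 in FR areas, against 6.46, 8.98 and 11.63 in Non-FR areas. The difference was -0.26 log2 (SE 0.47, 95% interval -1.26 to 0.73, p = 0.581), with FR higher in 6 of 10 slices and in 3 of 6 rats. Here too the second B10 slice was far from the rest, at -4.99 where the other 9 slices lay between -1.03 and 1.22, and the fitted value was 0.11 without its FR array.

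Frzb had a lowest, median and highest level of 5.92, 6.50 and 9.58 in FR areas, against 5.94, 6.11 and 9.97 in Non-FR areas. The difference was -0.40 log2 (SE 0.39, 95% interval -1.23 to 0.43, p = 0.323). Averaged per rat, Frzb was lower in FR areas in 6 of 6 rats, at -2.62 in B1, -0.34 in B10, -0.31 in B3, -0.12 in B13, -0.032 in P91 and -0.031 in B9. The fitted difference was -0.16 without B1, -0.14 without the Non-FR array of the second B10 slice, the dimmest array, and -0.52 without the FR array of that slice. The exact two-sided sign-flip test over these 6 values gave p = 0.0312, the smallest it can give, and it was the only one of the 5 genes below 0.05. This value was singled out after it was seen. Of 8211 features, 117 (1.42%) had a sign-flip p below 0.05. In single slices Frzb was higher in the FR area in 3 of 10, at 0.063 in S3 of P91, 0.077 in S3 of B9 and 0.76 in S1 of B10. P91 and B9 were near the lower end of the scale on every array, so the count of 6 rats rests in part on differences near 0. The sign-flip test gave p = 0.531 without the FR array of the second B10 slice.

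Wee1 had a lowest, median and highest level of 6.04, 7.10 and 9.65 in FR areas, against 6.02, 6.53 and 10.39 in Non-FR areas. The difference was -0.29 log2 (SE 0.40, 95% interval -1.13 to 0.55, p = 0.474), with FR higher in 5 of 10 slices and in 2 of 6 rats. B10 held both extremes, 2.36 in its first slice and -3.25 in its second. The fitted value was -0.15 without the FR array of that second slice and -0.027 without its Non-FR array, and it was -0.16 without B13 and also without B1. Serinc2 had 6.25, 9.02 and 11.49 in FR areas, against 6.31, 9.17 and 11.77 in Non-FR areas, and a difference of 0.0029 log2 (SE 0.43, 95% interval -0.91 to 0.92, p = 0.995). It was higher in the FR area in 5 of 10 slices but in 1 of 6 rats, B1, at 3.06. The sign-flip tests of Lpl, Cpeb4, Wee1 and Serinc2 gave p = 0.906, 0.375, 0.281 and 1.

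**Figure D5:**
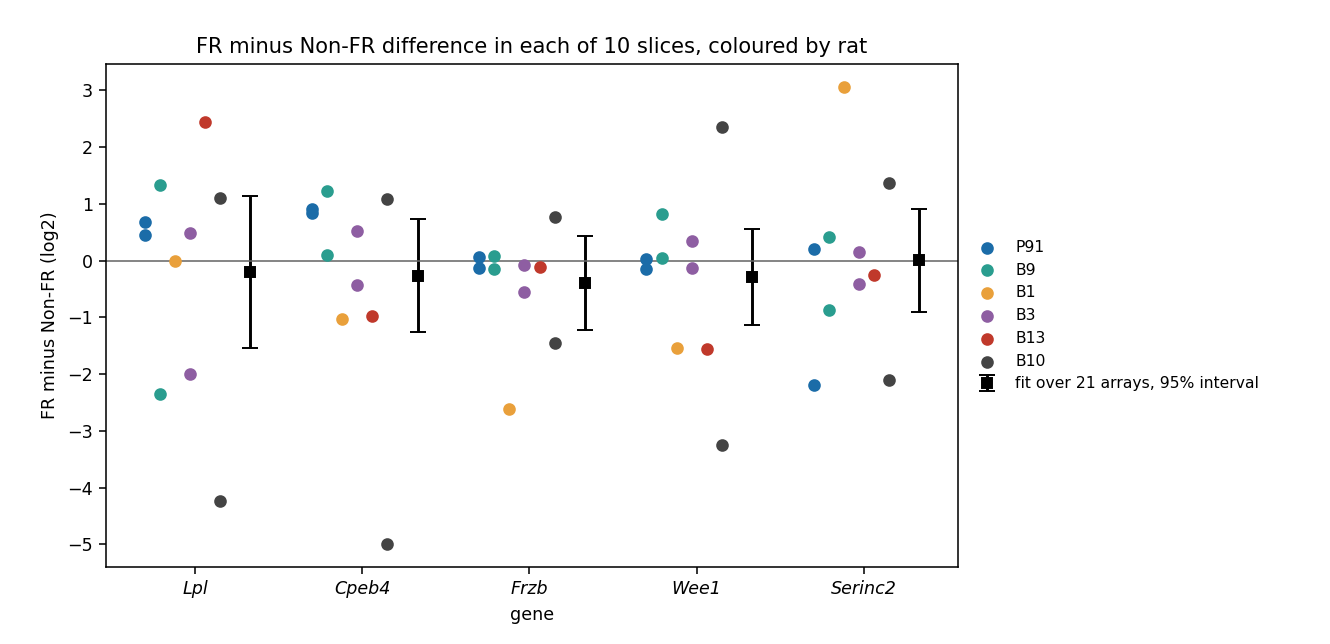
FR minus Non-FR difference (log2, vertical axis) of each gene in each of the 10 slices that gave both areas, coloured by rat, with black squares and bars for the limma estimate over 21 arrays and its 95% interval. All 5 intervals cover 0, the lowest points of Lpl, Cpeb4 and Wee1 are a slice of B10, and the lowest point of Frzb (-2.62) and the highest of Serinc2 (3.06) are B1.

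The differences themselves moved together in part. Over the 10 slices the FR minus Non-FR differences of Cpeb4 and Wee1 correlated by 0.875, of Frzb and Wee1 by 0.719 and of Frzb and Serinc2 by -0.881, as a description over slices that share rats. Without the second slice of B10, which held the lowest Lpl, Cpeb4 and Wee1 differences, these values were 0.814, 0.680 and -0.866 over 9 slices. Lpl with Cpeb4 turned to -0.216 over 9 slices, where it was 0.556 over 10, and Lpl with Wee1 to -0.189, where it was 0.376. Likeness within rats was not limited to the members. Within rats the score had r = 0.870 with the first principal component of all features, and 0.825 to 0.940 with the 10 genes most like it. Those 10 genes were picked by their r over the same arrays, so their high values within rats follow in part from that choice. Averaged per rat and tested by exact permutation over 6 rats, 10 pairs of genes were compared and none passed after Benjamini-Hochberg adjustment for Pearson's r or Spearman's rho. The smallest p was 0.0389, for Frzb with Serinc2 (r = -0.981, adjusted p = 0.389, exact permutation, n = 6). Its rho was -0.429 (exact permutation p = 0.419, adjusted p = 0.806, n = 6) and its r was -0.708 without the 2 rats farthest from the median of Frzb. The relation rested largely on B1, where the difference was -2.62 for Frzb and 3.06 for Serinc2.

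Genes that work with the 5 were read from lists chosen with earlier results of these data known, and none of their tested genes passed in either direction in the FR comparison. Over all 8211 features the median FR minus Non-FR difference was 0.0037 log2 and the median r with the score was -0.047. Values of r given next are over the 21 arrays.

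Around Lpl, 16 of 32 listed genes of lipoprotein handling and fatty acid uptake were tested, 0 were called higher and 0 lower, and the 15 besides Lpl had a median difference of 0.0021 log2 and a median r of 0.025. Apoe, the main lipid carrier of the brain, averaged 12.22 and ran against the score (r = -0.676), with a difference of 0.21 (SE 0.22, p = 0.348). Fabp7, a fatty acid binding protein of astroglia, had r = 0.330, and Acsl3, an acyl-CoA synthetase, had r = 0.687. Acsl1 and Acsl4, 2 more acyl-CoA synthetases named after their values were seen, had r = 0.937 and 0.935, the only members of this list above 0.8.

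Around Cpeb4, 14 of 28 listed genes of cytoplasmic polyadenylation were tested and 0 were called in either direction. The 13 besides Cpeb4 had a median difference of -0.015 log2 and r between -0.780 and 0.783. Cpsf3, the endonuclease that cuts messenger RNA before the tail is added, had r = -0.758, Pum2, a repressor that binds 3' ends, had r = 0.589, and Cnot8, a deadenylase, had r = -0.367. Around Frzb, 14 of 60 listed Wnt genes were tested and 0 were called. The 13 besides Frzb had a median difference of -0.018 log2 and r between -0.719 and 0.708. Ccnd1, cyclin D1, a target of Wnt signalling, had r = -0.646, Dvl1, which relays the signal from Frizzled, had r = -0.719, and Dkk3, a secreted protein of the Dickkopf family, had r = 0.445.

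Around Wee1, 4 of 24 listed genes of entry into mitosis were tested and 0 were called. Gadd45a, a stress-induced cell cycle brake, had r = 0.590, and Ccnb2, cyclin B2, had r = 0.115 at a level of 6.26, below the median feature. Of the circadian clock, 9 of 22 genes were tested, with a median difference of -0.045 log2 and 0 called. The repressor gene Per2 had r = 0.640, Bhlhe40, another repressor, 0.062 and the repressor gene Cry1 0.0041. Per1 and Nr1d1, named after their values were seen, had r = -0.742 and -0.785, so 2 Period genes ran in opposite directions over the same arrays.

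Around Serinc2, 10 of 20 listed genes of the serine incorporators and of serine-based lipids were tested and 0 were called. The 9 besides Serinc2 had a median difference of 0.061 log2. Serinc3, another family member, had an r near 0 (0.026), with rat means from 10.62 in B9 to 11.10 in P91. Phgdh, the first enzyme of serine synthesis, had r = -0.799. Ptdss2, a phosphatidylserine synthase, and Cers2, a ceramide synthase, named after their values were seen, were the 2 genes besides Serinc2 below -0.8 (-0.862 and -0.809), and Serinc1 was the 1 above 0.8.

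Of 14 tested genes induced by neuronal activity (20 listed), 0 were called, with a median difference of -0.039 log2. Dusp1, a phosphatase of MAP kinases, had r = 0.446, the transcription factor gene Egr1 0.189 and Junb, an AP-1 subunit, -0.778. Nr4a3, a nuclear receptor named after its value was seen, was the only member above 0.8 (0.815). Of 10 tested glucocorticoid-responsive genes (16 listed), 0 were called, with a median difference of 0.017 log2. Nfkbia, an inhibitor of NF-kappa B, had r = 0.323, Mt1, a metallothionein, -0.089 and Hsd11b1, which regenerates corticosterone, -0.091.

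Cell type markers were tested in both kinds of area, and 0 of any list were called. For mature granule cells 3 of 11 markers were tested, and both abundant ones ran differently, Calb1 (calbindin) with r = 0.406 and C1ql2, a synaptic C1q-like protein, with r = -0.416. Prox1, the defining transcription factor of granule cells, named after its values were seen, was detected on 15 arrays at a mean of 5.98, below the median feature. The 3 had a negative FR minus Non-FR difference (median -0.49 log2), and the list mean ran from -1.85 to 0.72 in FR areas, against -1.46 to 0.74 in Non-FR areas. CA1 pyramidal cell and choroid plexus lists had 0 tested genes. For CA3 pyramidal cells 3 of 5 were tested, with Bok at 0.104 and Cpne4 at -0.096. For mossy cells 4 of 5 were tested, with Nmb at 0.067 and Drd2 at -0.088, and for immature granule cells and progenitors 4 of 9, with Tubb3 at -0.339 and Igfbpl1 at 0.034.

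Over the arrays, markers of microglia and of oligodendrocyte precursors ran against the 4 genes. All 8 tested of 12 microglia markers had a negative r, from -0.794 to -0.173, with the complement genes C1qb at -0.619 and C1qa at -0.618. The mean of that list, as a deviation from each gene's own mean, was 0.83 in P91 and 0.28 in B9, and -0.17 in B3, -0.31 in B13, -0.36 in B1 and -0.67 in B10. It ran from -0.93 to 1.37 in FR areas, against -0.91 to 1.19 in Non-FR areas, and 7 of the 8 genes had a positive FR minus Non-FR difference (median 0.17 log2), none called. All 4 tested of 6 markers of oligodendrocyte precursors had a negative r, with Olig1 at -0.694 and Cspg4 at -0.477, and their mean ran from 0.63 in P91 to -0.48 in B10, and from -0.59 to 1.69 in FR areas, against -0.99 to 0.82 in Non-FR areas. All 4 had a positive FR minus Non-FR difference (median 0.30 log2), none called. Sox10, which drives the differentiation of oligodendrocytes and was named after its value was seen, had 0.43 (unadjusted limma p = 0.017, adjusted p = 0.9999). Within rats the r of Sox10 with the score was 0.196, against -0.654 to -0.161 for the rest of the precursor list. Endothelial markers went both ways over arrays (4 tested of 9, r from -0.580 to 0.263, Cldn5 at -0.362, Esam at -0.326) and had their highest mean in B9 (0.50) and their lowest in B10 (-0.85), and ran from -1.03 to 1.40 in FR areas, against -1.14 to 1.11 in Non-FR areas. The part of these cells in the levels of the 5 genes was not tested.

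Other cell types were mixed. Of 8 tested of 9 astrocyte markers, Gfap, the filament of reactive astrocytes, had r = -0.795 and Gja1, connexin 43, r = 0.427, and the list mean ran from -0.70 to 0.74 in FR areas, against -0.20 to 0.17 in Non-FR areas. Of 7 tested of 9 interneuron markers, Gad1, which makes GABA, had r = 0.715 and Npy, a neuropeptide that mossy fibres also make in epileptic rats, r = -0.632. Of 7 tested of 11 oligodendrocyte markers, Cnp had r = -0.724 and Mog r = 0.264, and all 7 had a positive FR minus Non-FR difference (median 0.26 log2), none called. Pericyte and meningeal markers (4 tested of 8, r from -0.314 to 0.627) included Igf2 at 0.627 and Dcn at 0.135. Hba-a1, the 1 red blood cell gene tested of 6, had r = -0.368 and was detected on 10 arrays.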

How the data were processed

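Total RNA from 21 dentate gyrus areas was measured on Illumina rat expression beadchips. Per the file headers, the deposited table gave for each probe and array an average signal, an intensity on a linear scale, and a detection p-value. A second deposited table held the authors' processed log2 values, and the submitters' processing notes name lumi 2.2. Its exact steps are not given in the sources used here, and it served as an alternative.

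Of 22523 probes, 720 were 0 throughout and were dropped. Signals were background-corrected and quantile-normalized with neqc of limma 3.58.1 in R 4.3.3 (offset 16, log2), which compresses differences of dim probes. A probe was kept if its detection p was under 0.01 on 10 or more arrays, which left 8223, and the probe with the highest mean stood for a symbol, giving 8211 features. FR was compared with Non-FR areas by limma over all 21 arrays, with the rat as a block, two-sided, Benjamini-Hochberg adjusted at 0.05, and checked on simulated data. The pairing comes from the labels: areas of 1 slice correlated by 0.36 on average, other areas of the same rat by 0.35 and areas of different rats by -0.11. Exact sign-flip tests used the means of 6 rats. No 2 arrays were identical. Alternatives changed the block, normalization, filter, weights and arrays.

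The genes and all gene lists were chosen with earlier results of these data known. Named genes were the 5 members, the 10 most like and 5 most opposite to the score over 21 arrays, the 3 tested genes with the highest mean of each function list and the 2 of each cell type list. Genes outside that rule are marked. Promoter letters are those of RefSeq.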

Additional observations from a re-analysis of the deposited data

Results flagged for a closer look

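Of 17 sets of values checked for 1 value far from the rest (FR levels, rat means and rat differences of the 5 genes, and the signal and detected probes of FR arrays), 3 had such a value, where chance, which picks out about 1 in 20 such sets, gives about 0.85. The sets share arrays and rats. Rat B1 was far below the other rats in its Frzb difference, at -2.62 log2 FR minus Non-FR, where the next lowest was -0.34. The same rat was far above the others in its Serinc2 difference, at 3.06, where the next highest was -0.13. B1 gave 1 slice, so neither value has a second slice beside it. The FR array of slice S3 of B9 had the highest mean signal, 369.8 intensity units, where the next FR array had 243.9.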

How the results depend on the processing

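The count of called features was 0 under all 20 alternatives, and Frzb stayed lower in FR areas under all 20, from -0.58 to -0.14 log2. With the slice as replicate block the differences of Lpl, Cpeb4, Frzb and Wee1 were -0.21, -0.27, -0.42 and -0.30, and Serinc2, near 0 in the first place, turned to -0.063. Serinc2 also turned to -0.15 with no replicate block, -0.059 with the rat as a random block, -0.021 with array weights, -0.12 without the dimmest array and -0.061 without the FR array of the second B10 slice, an alternative added after the data were seen. Lpl turned to 0.032 on rat means and to 0.32 without that FR array. Cpeb4 turned to 0.13 with array weights, 0.0066 without the dimmest array and 0.11 without that FR array. Wee1 turned to 0.0069 with array weights. Leaving out 1 rat at a time, Lpl ran from -0.48 to 0.12, Cpeb4 from -0.54 to 0.14, Frzb from -0.51 to -0.16, Wee1 from -0.48 to -0.16, and Serinc2 from -0.32 to 0.24, with the turned values 0.12 for Lpl and 0.14 for Cpeb4 without B10, and -0.023 and -0.32 for Serinc2 without B9 and B1. The cause of these turns was not tested.

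The sign-flip p of Frzb, singled out after its value was seen, was 0.0625 under 75th percentile scaling. It was 0.531 without the dimmest array or without the FR array of the second B10 slice. The dimmest array is the Non-FR array of that slice, so both removals drop the same slice difference and give the same test. With that scaling, and without that slice difference, 0 of 5 genes had a sign-flip p below 0.05. With 5 rats that test could not pass, so it was not run with a rat left out. With 1 rat left out, the range over rats of Lpl ran from 3.55 to 5.04, of Frzb from 2.02 to 3.63, and the r of Serinc2 with the 4 genes from -0.92 to -0.75. In FR areas only, the range of Serinc2 was 5.24, its r -0.74 and the mean pairwise r of the 4 genes 0.81, and in Non-FR areas only the r of Serinc2 was -0.97. Features at an unadjusted p below 0.05 numbered 8 to 547 under the alternatives, the most without the detection filter. The number of arrays and of rats limits the precision of every value.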
